A study of Solanum lycopersicum with 9 samples.

Results

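The JRE genes (jasmonate-responsive ERF genes) JRE1 to JRE5 are a group of ethylene response factor genes that lie close together on tomato chromosome 1. The members were taken by their 5 identifiers, Solyc01g090300 (JRE1), Solyc01g090310 (JRE2), Solyc01g090320 (JRE3), Solyc01g090340 (JRE4) and Solyc01g090370 (JRE5), and all 5 are among the 34075 genes of the count table. The cluster was chosen from its measured levels, since its counts in the edited lines and the wild type were known when it was singled out. Values of the members against the wild type are therefore a description without a test. The RefSeq table of assembly SLM_r2.1 lists the 5 symbols on chromosome 1 in the same order as the identifiers. It does not hold the identifiers themselves.

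The study set 2 tomato lines edited by CRISPR in SlZFP2, a zinc finger transcription factor gene, against the unedited wild type. The groups were line c2.11, line c2.5 and WT, all in the cultivar Micro-Tom, with 3 libraries each. Every library pooled the locular tissue of 6 fruits picked 6 days after anthesis, with the young seeds taken out. The locular tissue is the gel that fills the seed chambers. Which bases were edited is not stated in the labels. No level of SlZFP2 is given as a check of the labels, because the RefSeq table did not settle which identifier it has and an edit need not lower the transcript. The labels do not say whether pools of a genotype came from separate plants, so p-values may measure only the spread between pools.

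ERF proteins bind DNA through an AP2/ERF domain and switch target genes on or off. Jasmonate, a hormone made from membrane lipids after wounding or attack, acts by removing JAZ repressors from transcription factors such as MYC2, and clustered ERF genes of the nightshade family are among the genes that respond. JRE4, also called GAME9, is known in tomato as an activator of genes for steroidal glycoalkaloids such as tomatine, bitter defence compounds of green tomato tissue made from cholesterol. The related ERF cluster of tobacco is known for its control of nicotine synthesis.

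The 9 libraries held 19963325 to 20727310 counts. Levels are given as normalized CPM, which is counts relative to a library size scaled by TMM. The locular tissue markers AGL11 and MBP3, both MADS-box genes of seed and locule development, were present in every group, with mean levels of 127 and 386 CPM in c2.11, 129 and 378 CPM in c2.5, and 110 and 351 CPM in WT (n = 3 libraries each). AGL11 was called higher in the lines (log2 difference 0.23, edgeR adjusted p = 0.00367), and its line libraries all lay above its WT libraries. Among the 3 epidermis markers, the cutin synthase gene CD1 averaged 51.9 ± 14.6 CPM in c2.11, 38.6 ± 5.46 in c2.5 and 21.5 ± 2.95 in WT. CD1 was called higher in the lines (log2 difference 1.06 ± 0.195, SE, with an edgeR adjusted p of 0.00240). CD2, a regulator of the cuticle, averaged 31.7, 35.4 and 32.6 CPM in c2.11, c2.5 and WT and was not called. The wax gene CER6 averaged 0.917, 0.432 and 0.241 CPM and did not pass the filter on low counts. The part of these markers in the results below was not tested. In bulk tissue, fewer cells of a type and less RNA per cell cannot be told apart.

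JRE1 transcripts were counted in WT alone. No read was assigned to JRE1 in the 3 c2.11 libraries or the 3 c2.5 libraries, whereas WT replicates 1, 2 and 3 had 84, 101 and 75 counts. The WT level was 4.88 ± 0.745 CPM (SD, n = 3), a coefficient of variation of 15.3%. A count of 0 was taken to allow up to 3 counts summed over the 6 line libraries, or 0.0232 CPM. The WT mean of JRE1 was 210-fold above that limit. Counting error in WT is left out of this value, so the difference may be smaller.

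JRE2 was close to silent in both lines. Replicates 1, 2 and 3 had 4, 4 and 9 counts in c2.11, 2, 1 and 0 counts in c2.5, and 73, 116 and 49 counts in WT. All 6 line libraries lay below the lowest WT library. The level was 0.263 ± 0.136 CPM in c2.11, 0.0467 ± 0.0464 CPM in c2.5 and 4.47 ± 1.92 CPM in WT (SD, n = 3 each), so that c2.11 held 5.89% and c2.5 held 1.04% of the WT level. Summed counts gave a 28.9-fold lower level in the lines, with an exact 95% binomial interval of 18.3 to 48.1 for counting error only.

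JRE3 was scarce everywhere. It had 0 counts in all 6 line libraries and 10, 3 and 2 counts in WT replicates 1, 2 and 3, or 0.277 ± 0.233 CPM in WT (SD, n = 3). The WT mean of JRE3 was 11.9-fold above the same limit for 0 counts in the lines. The counting error of its 15 WT counts is left out of this value, so the difference may be smaller. JRE5 had no count in any of the 9 libraries, which allows up to 0.138 to 0.174 CPM per library, so nothing can be said of a difference.

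JRE4, the activator of glycoalkaloid genes, remained well expressed in the lines, at a lower level than in WT. Its counts were 1644, 1667 and 1490 in c2.11 replicates 1, 2 and 3, 1435, 1496 and 1554 in c2.5, and 3443, 4322 and 3752 in WT. In normalized terms it stood at 74.1 ± 3.99 CPM in c2.11, 69.6 ± 2.70 CPM in c2.5 and 217 ± 29.1 CPM in WT (SD, n = 3 each). The highest line library, c2.11 replicate 1, reached 76.5 CPM, and the lowest WT library, WT replicate 1, 187 CPM. Level in the lines was 33.2% of that in WT, a fitted log2 difference of -1.59 ± 0.07 (SE).

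**Figure D1:**
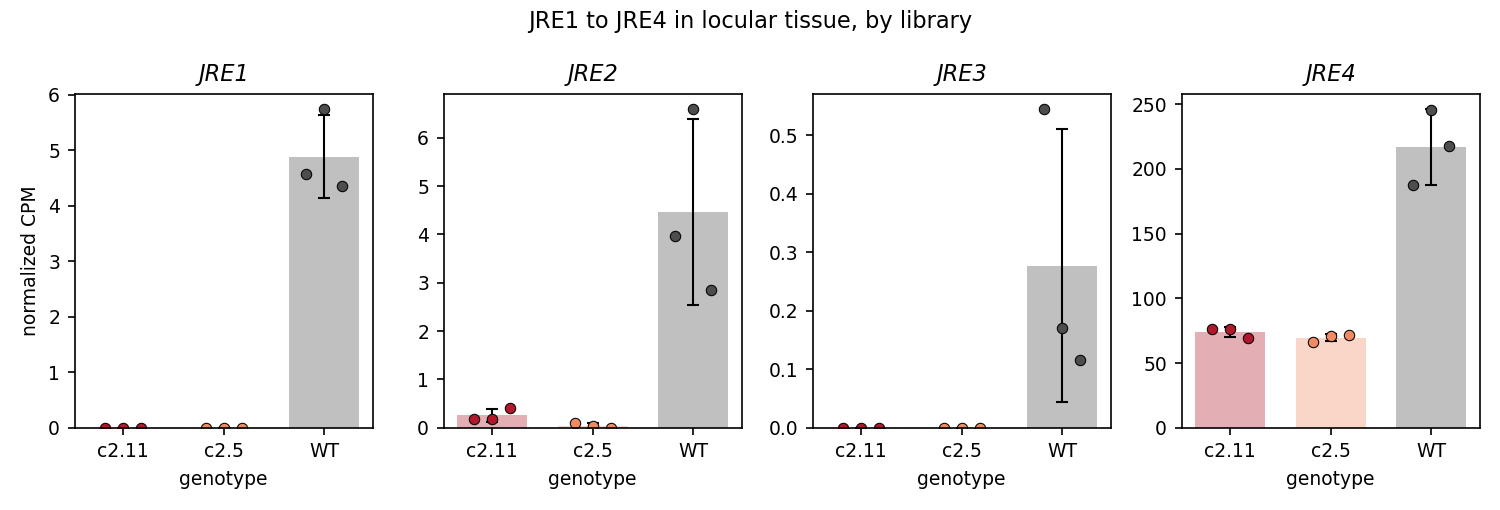
Normalized CPM of JRE1, JRE2, JRE3 and JRE4 in the libraries of c2.11, c2.5 and WT. Points are libraries, bars the mean and error bars the SD of 3 libraries, on a separate axis per gene. JRE1 and JRE3 stand at 0 in all 6 line libraries, JRE2 at 0.420 CPM or less, and JRE4 between 66.6 and 76.5 CPM in the lines and between 187 and 245 CPM in WT.

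JRE1 and JRE3 were thus listed at 0 in the lines, JRE2 at a few counts, and JRE4 at a fitted 3.02-fold lower level than WT. 3 of the 5 members passed the filter on low counts, JRE1 and JRE2 only through their WT libraries. All 3 were called lower in both lines together, where 28.6% of the 19358 genes tested were called lower (57.1% were called in either direction). The same 3 were called lower in c2.5 alone, with 25.1% of all genes tested called lower, and in c2.11 alone, with 27.3%. In JRE1, JRE2, JRE3 and JRE4 all line libraries lay below all WT libraries, a pattern shown by 24.9% of the genes tested. Since this contrast chose the members, nothing is read from these counts. The contrasts of c2.11 and c2.5 also share their 3 WT libraries.

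The labels do not say how reads shared by near-identical ERF genes were assigned, so counts of JRE1, JRE2 and JRE3 are uncertain where reads could fit more than 1 of them.

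The members were chosen on the contrast with WT and not on the difference between the lines, although the counts of both lines were known. Between c2.11 and c2.5, 1.29% of all genes tested were called. JRE1, at 0 counts in both lines, could not be called there. JRE4 was 0.09 ± 0.09 higher in c2.11 on the log2 scale (SE, edgeR adjusted p = 0.682). JRE2 was 2.35 ± 0.84 higher in c2.11 (SE, edgeR adjusted p = 0.223), on 17 counts in c2.11 and 3 counts in c2.5, with an unadjusted p under 0.05. Its log2 difference was 3.19 without c2.5 replicate 1 and 1.32 with a prior count of 2. DESeq2 called neither JRE2 nor JRE4. A p that misses the threshold on so few counts does not show that JRE2 was equal in both lines. For JRE2, all 3 c2.11 libraries, at 0.183 to 0.420 CPM, lay above all 3 c2.5 libraries, at 0 to 0.0928 CPM. The share of all genes tested that part the lines in this way was not counted, so nothing is read from this gap. For JRE4 the libraries of c2.11 and c2.5 overlapped.

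WT replicate 2 had the highest level of JRE1, JRE2 and JRE4 among the WT libraries. JRE3 was highest in WT replicate 1, at 0.544 CPM from 10 counts. Over all genes tested, 32.1% were highest in WT replicate 2. Of the 12 glycoalkaloid genes tested, 10 were highest in that library.

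Genes that lie beside the cluster in the order of identifiers were called in both directions. Of these 20, 1 was called at a difference of at least 2-fold, beside 2790 of the 19358 genes tested. 3 further identifiers lie between JRE4 and JRE5 and had at most 1 count in any library. Of the 10 identifiers before the cluster, all 10 were called in both lines together, 4 higher and 6 lower, with log2 differences between -0.59 and 0.44. Of the 10 identifiers after it, 1 was called higher and 6 lower. Over all genes tested 57.1% were called, 28.5% higher and 28.6% lower. Only Solyc01g090410 among these 20 was changed at least 2-fold. It stood at 4.60 ± 1.04 CPM in c2.11, 4.09 ± 0.438 CPM in c2.5 and 30.3 ± 5.18 CPM in WT (SD, n = 3 each), 6.98-fold lower in the lines (log2 difference -2.80 ± 0.14, SE, edgeR adjusted p = 2.10e-08). What it encodes is not stated in the tables used here. The median log2 difference was -0.19 before the cluster and -0.21 after it, beside 0.01 over all genes tested.

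**Figure D2:**
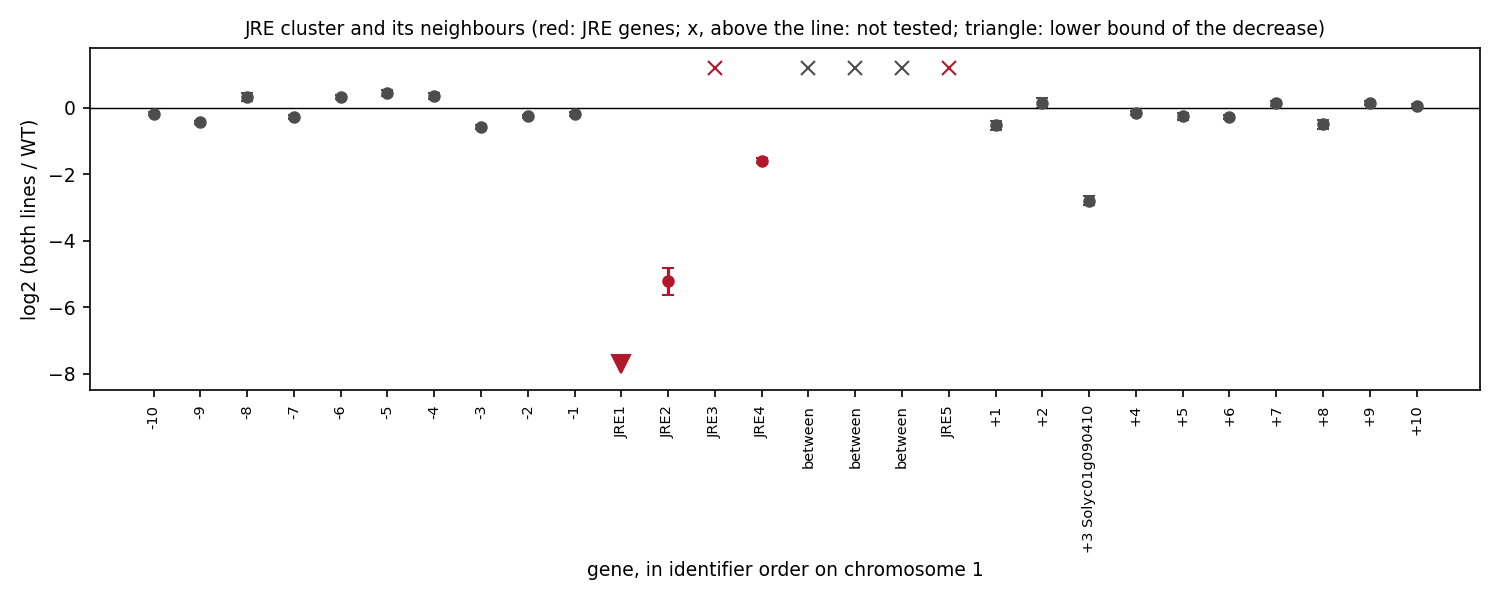
Log2 difference between both lines and WT (vertical axis, bars SE) for the JRE genes (red) and their neighbours (grey) in identifier order on chromosome 1, with neighbours numbered outward from the cluster. The triangle marks JRE1 at the 210-fold gap between its WT mean and the limit for 0 counts in the lines. Crosses mark genes not tested. Of the 20 numbered neighbours only Solyc01g090410 reaches a 2-fold difference, beside 2790 of the 19358 genes tested that were called at that size.

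Most genes of the list for steroidal glycoalkaloid synthesis were lower in both lines. JRE4 is known as an activator of such genes, but whether its level had a part in their levels here was not tested. The list was chosen with earlier results of these data known, so its calls are given as a description. The list held 13 entries, of which 12 were found in the count table and tested. In both lines together 10 were called lower and 2 higher, beside 28.6% and 28.5% of all genes tested. The 2 higher were GAME2, described below, and an entry not named here, with an edgeR adjusted p of 0.0498. The call of the unnamed entry was lost with median-of-ratios scaling, without the low-count filter and when some single libraries were left out. The median log2 difference of the list was -1.71, beside 0.01 over all genes. For 9 of the entries the reference table gives the same chromosome as the identifier, and these are named here. 8 of these 9 fell in both lines.

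Among the named genes, those that make the alkaloid core from cholesterol fell 1.93-fold to 5.53-fold. GAME7 (Solyc07g062520), a cytochrome P450 that hydroxylates the cholesterol side chain, had 72.7, 79.6 and 65.4 CPM in the c2.11 libraries, 68.7, 69.7 and 72.9 CPM in c2.5, and 315, 468 and 403 CPM in WT. The lines and WT did not overlap, and the log2 difference was -2.47 ± 0.11 (SE, edgeR adjusted p = 1.07e-07). GAME11 (Solyc07g043420), a dioxygenase, averaged 7271 ± 690 CPM in c2.11, 6984 ± 222 CPM in c2.5 and 24220 ± 4471 CPM in WT (SD, n = 3 each; log2 difference -1.77 ± 0.10, edgeR adjusted p = 4.55e-08). GAME11 had the highest count of any gene in each of the 9 libraries, with no correction for gene length. It took 0.772% ± 0.0671 of the counts in c2.11, 0.747% ± 0.0273 in c2.5 and 2.12% ± 0.338 in WT.

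GAME6 (Solyc07g043460), another cytochrome P450, averaged 979 ± 108 CPM in c2.11, 922 ± 14.9 CPM in c2.5 and 1837 ± 358 CPM in WT, the smallest fall of the 8 (log2 difference -0.95 ± 0.11, SE, edgeR adjusted p = 5.62e-05). GAME4 (Solyc12g006460), the cytochrome P450 at the branch between alkaloids and saponins, fell by 1.77 ± 0.13 on the log2 scale (SE, edgeR adjusted p = 5.46e-06). GAME12 (Solyc12g006470), the transaminase that brings in the nitrogen, fell by 2.14 ± 0.15 (SE, edgeR adjusted p = 5.81e-06). The reference table lists GAME11 and GAME12 as synonyms of the symbols gad2 and GABA-TP2.

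Among the glycosyltransferase genes, which add sugars to the alkaloid, GAME1, GAME17 and GAME18 were lower in the lines. GAME1 (Solyc07g043490), which adds the galactose, fell by 1.18 ± 0.09 (SE, edgeR adjusted p = 5.25e-07). GAME17 (Solyc07g043480) and GAME18 (Solyc07g043500), which add glucose, fell by 1.48 ± 0.08 and 2.03 ± 0.12 (SE, edgeR adjusted p = 3.77e-08 and 4.76e-07).

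GAME2 (Solyc07g043410), which adds the final xylose, was higher in the lines at few counts. It passed the filter on low counts only through its c2.11 libraries, where it was highest, which limits what its calls can show. It had 43, 38 and 29 counts in c2.11, 9, 7 and 18 counts in c2.5, and 2, 7 and 2 counts in WT, so that c2.5 and WT overlapped, with c2.5 replicate 2 at 0.331 CPM and WT replicate 2 at 0.398 CPM. It was called in both lines pooled (log2 difference 2.16 ± 0.465, SE, edgeR adjusted p = 0.00149) and in c2.11 alone (edgeR adjusted p = 0.000156). Without WT replicate 2 the log2 difference in both lines was 3.01. In c2.5 alone it was not called (log2 difference 1.32, edgeR adjusted p = 0.0597). The difference between c2.11 and c2.5 was 1.68 ± 0.39 (edgeR adjusted p = 0.0630), and over the alternatives its adjusted p ran from 0.0174 to 0.298. By edgeR 0 of the 12 list members were called between the lines, GAME2 was the 1 with an unadjusted p under 0.05, and DESeq2 called GAME2.

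**Figure D3:**
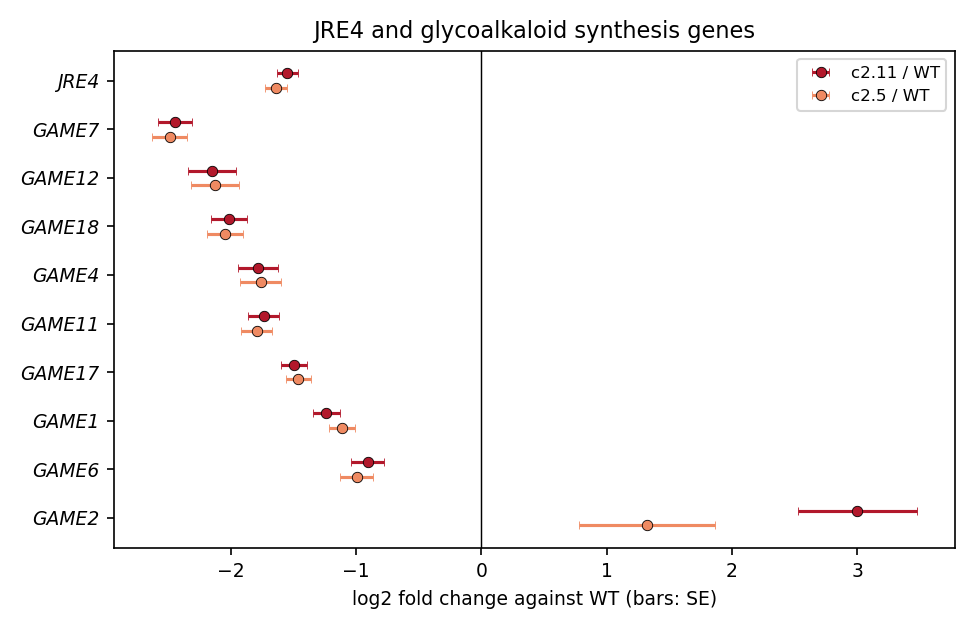
Log2 fold change against WT (horizontal axis, bars SE) of JRE4 and of the 9 named glycoalkaloid genes in c2.11 and c2.5. All but GAME2 lie left of 0 in both lines, from GAME7 at -2.47 to GAME6 at -0.95 for both lines together.

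The gene whose pattern was most like that of JRE4 was a glycoalkaloid gene. Over the 9 libraries and among 19355 genes outside the cluster, GAME7 had the highest Pearson r with JRE4, 0.999, computed on log2 CPM with a prior count of 2. Solyc01g111260 came next, at 0.998, and was 3.23-fold lower in the lines. The measure mostly records the gap between the lines and WT, since 1511 of the 19355 genes reached 0.95. Of the 12 glycoalkaloid genes, 10 reached it, with a median r of 0.992. After each genotype was centred on its own mean, the median r with JRE4 was 0.861 for these 12 genes, 0.739 for the 16 jasmonate genes, 0.654 for the 4 wound output genes and 0.01 for all genes outside the cluster. For GAME7 the centred value was 0.962, the rank of 17 among 19355. Genes in 1 library share its depth and scaling, so these values describe 9 libraries and carry no test. The coefficient of variation of JRE4 was 13.4% in WT, 5.38% in c2.11 and 3.88% in c2.5. Centred values therefore rest mostly on the spread among the 3 WT libraries. JRE1 had an r of 0.992 with JRE4 and JRE2 an r of 0.949, with 0.654 and 0.00 after centring. The values before centring follow from the contrast that chose the members, so nothing is read from them. JRE1, at 0 counts in every line library, varied after centring in the WT libraries alone.

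Jasmonate genes were called in both directions, as were genes over the whole count table. Of the 20 entries of the list, 16 were tested, and 6 were called higher and 4 lower in both lines together. Over all genes tested 28.5% were called higher and 28.6% lower, 57.1% in either direction. The list's median log2 difference was 0.01, as over all genes tested. For 11 of the entries the reference table gives the same chromosome, and 4 of these were called higher and 3 lower. Nothing is read from these counts about jasmonate genes as a set.

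Among the genes of jasmonate synthesis, AOS1, AOS2 and LOXD were called higher in the lines, AOC and OPR3 lower, and JAR1 was not called. AOS2 (Solyc11g069800), an allene oxide synthase, had 46.2, 43.0 and 40.6 CPM in c2.11, 45.2, 42.2 and 41.6 CPM in c2.5, and 9.46, 9.99 and 11.1 CPM in WT. The lines and WT did not overlap, and the log2 difference was 2.08 ± 0.07 (SE, edgeR adjusted p = 4.29e-10). AOS1 (Solyc04g079730), a second allene oxide synthase gene, was 2.83-fold higher, on 22 to 40 counts per line library and 4 to 11 per WT library (edgeR adjusted p = 0.00211). AOS1 passed the filter on low counts only through its line libraries, where it was highest. That limits what its call can show, also within the counts of jasmonate genes called higher. LOXD (Solyc03g122340), a lipoxygenase, had 236, 290 and 186 counts in c2.11, 209, 231 and 218 counts in c2.5, and 91, 76 and 65 counts in WT (log2 difference 1.28 ± 0.14, SE, edgeR adjusted p = 6.62e-06).

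AOC (Solyc02g085730), the allene oxide cyclase, averaged 260 ± 49.5 CPM in c2.11, 269 ± 25.5 CPM in c2.5 and 439 ± 66.6 CPM in WT (log2 difference -0.73 ± 0.13, SE, edgeR adjusted p = 0.00187). OPR3 (Solyc07g007870), an OPDA reductase, fell by 0.23 ± 0.05 on the log2 scale (SE, edgeR adjusted p = 0.00240), a value that turned to 0.0453 with total count scaling.

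Among the signalling genes, MYC2 (Solyc08g076930), the main transcription factor of the response, stood at 29.0, 29.8 and 29.6 CPM in c2.11, 27.8, 35.4 and 33.8 CPM in c2.5, and 45.5, 50.6 and 45.9 CPM in WT (log2 difference -0.62 ± 0.07, SE, edgeR adjusted p = 8.52e-06). JAZ2 (Solyc12g009220), a repressor, was 0.77 ± 0.26 higher (SE, edgeR adjusted p = 0.0373). Leaving out any 1 of 6 libraries ended that call, with edgeR adjusted p from 0.0627 to 0.133. These were replicates 1 and 2 of each line and replicates 1 and 3 of WT. The receptor gene COI1 (log2 difference 0.12), the conjugating enzyme JAR1 (-0.06), MYC1 (-0.06) and JAZ3 (-0.21) were not called. Between the lines edgeR and DESeq2 called 0 of the 16, and MYC1 alone had an unadjusted edgeR p under 0.05.

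Of 4 wound output genes tested, TD2 and LAPA1 were called lower in the lines and 0 higher, beside 57.1% of all genes called in either direction. TD2 (Solyc09g008670), a threonine deaminase that defends against chewing insects, had 572, 430 and 309 counts in c2.11, 462, 643 and 445 counts in c2.5, and 38786, 110894 and 78393 counts in WT. The highest line library reached 30.4 CPM and the lowest WT library, WT replicate 1, 2109 CPM, and the log2 difference was -7.61 ± 0.42 (SE, edgeR adjusted p = 7.99e-06). LAPA1 (Solyc12g010020), a leucine aminopeptidase, averaged 13.5 ± 6.95 CPM in c2.11, 20.9 ± 4.17 CPM in c2.5 and 79.6 ± 27.1 CPM in WT (log2 difference -2.24 ± 0.34, SE, edgeR adjusted p = 0.00134). LAPA2, its close relative with which it could share reads, and the arginase gene ARG2 were not called (log2 differences 0.55 and 0.94, edgeR adjusted p = 0.168 and 0.0833). ARG2 was called higher with DESeq2 (adjusted p = 0.0304) and without c2.11 replicate 3 (edgeR adjusted p = 0.00481), and LAPA2 with a replicate block (edgeR adjusted p = 0.0184). The list had 7 entries with 4 tested, and 0 of the 4 were called between the lines by edgeR or DESeq2, none with an unadjusted edgeR p under 0.05.

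**Figure D4:**
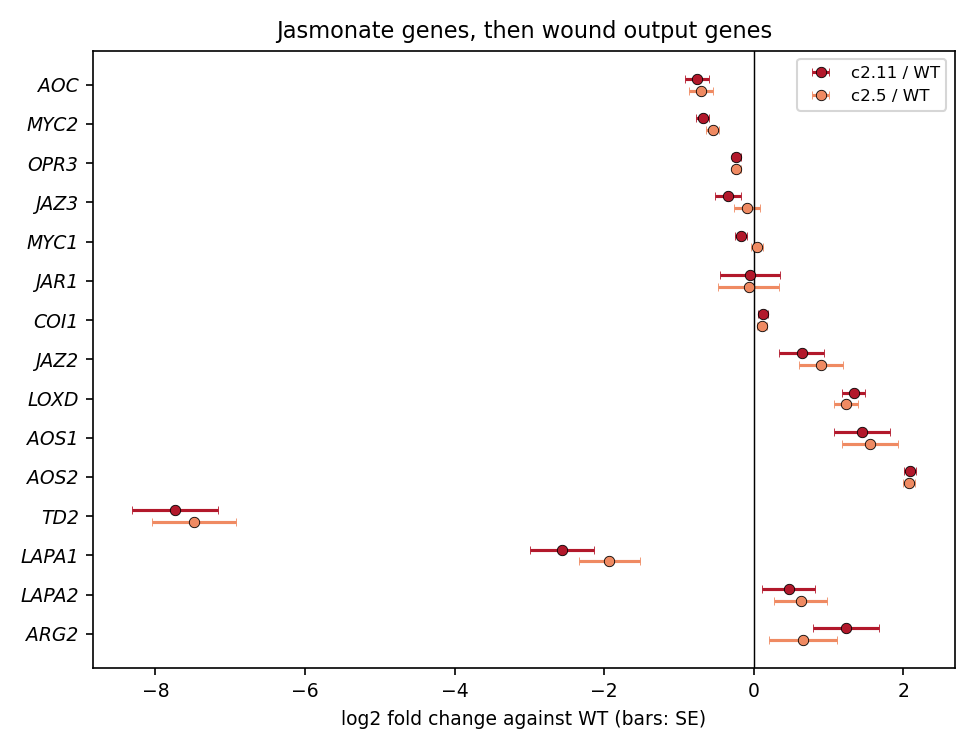
Log2 fold change against WT (horizontal axis, bars SE) in c2.11 and c2.5 of the 11 jasmonate genes and, below them, 4 wound output genes whose chromosome matched the reference table. AOS2 stands highest at 2.08 and TD2 lowest at -7.61 for both lines together.

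TD2 and JRE4 stood in the same order among the WT libraries. WT replicates 1, 2 and 3 had 2109, 6298 and 4546 CPM of TD2, and 187, 245 and 218 CPM of JRE4, so both were lowest in replicate 1 and highest in replicate 2. Over all genes tested, 32.1% were highest in WT replicate 2, and the share with this full order was not counted. The centred r of TD2 with JRE4 was 0.899, again a description over 9 libraries that rests mostly on the 3 WT libraries.

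**Figure D5:**
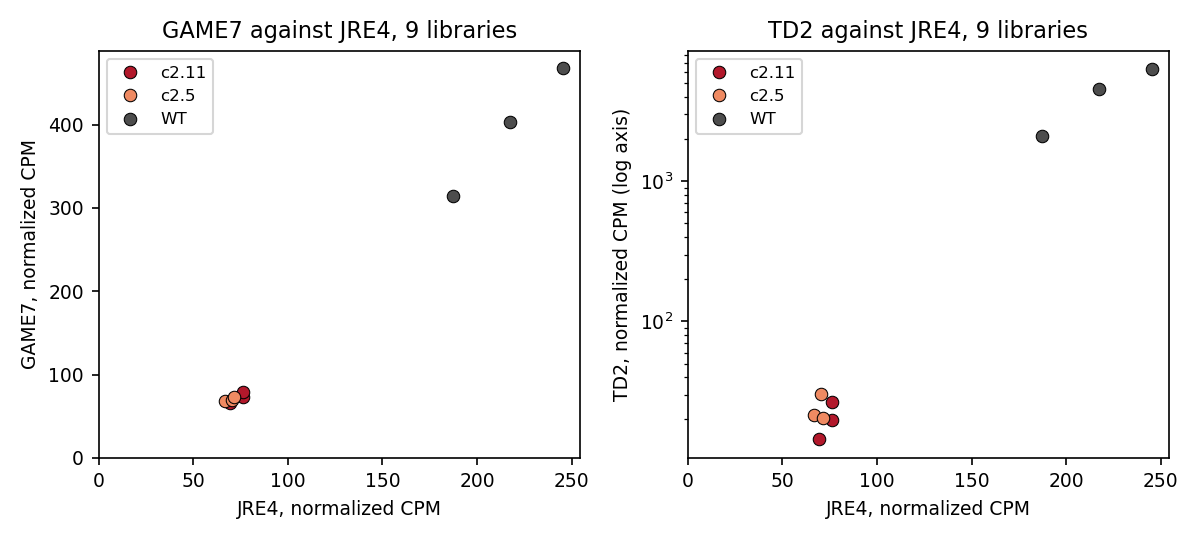
Normalized CPM of GAME7 (left, linear axis) and TD2 (right, log axis) against JRE4 in 9 libraries. The 6 line libraries sit together at 66.6 to 76.5 CPM of JRE4, and the 3 WT libraries stand apart in the same order for both genes.

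All differences above are set against the median gene. With total count scaling in place of TMM the median log2 difference of all genes moved to 0.29, and 78.5% of calls were higher, beside 50.0% with TMM. JRE4 then stood at -1.31, GAME7 at -2.19 and GAME6 at -0.67, still lower in the lines.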

How the data were processed

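The authors deposited 1 table of raw counts per gene and library for 9 libraries of stranded mRNA, made with featureCounts after FastQC, per the submitters' processing notes. Versions, aligner, genome build, strand setting and the treatment of reads that match several genes are not known from those notes. All 9 libraries entered 1 fit with edgeR 4.0.16 (R 4.3.3): TMM factors, filterByExpr, and the robust quasi-likelihood test with p-values adjusted by Benjamini-Hochberg over the 19358 genes tested, called at 0.05. Both lines together were the mean of c2.11 and c2.5. The code was tested on simulated data. The members and gene lists were chosen with earlier results of these data known.

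Names and identifiers of list genes were paired from general knowledge and compared with the RefSeq table of assembly SLM_r2.1, which holds no such identifiers. Of 53 entries, 35 lay on the same chromosome, and only these are named. List genes called in both lines together were to be named, up to 10 a list, with the 2 genes most like JRE4, and neighbours called in every contrast with WT and at least 2-fold. Uncalled list genes were named in addition, after their values were seen. The 1 entry for a seed marker and the 1 entry for a JRE gene outside the cluster matched no symbol on their chromosome and did not pass the filter, so no seed marker was available.

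No pair of replicates agreed within sampling noise. The lowest chi-square per degree of freedom was 4.43. Counting intervals and floors cover counting error only. Figures were drawn with matplotlib 3.10.9. The alternatives were DESeq2 1.42.0, other scalings and filters, a replicate block, fits of the compared genotypes alone, other prior counts and leaving out each library.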

Additional observations from a re-analysis of the deposited data

How the results depend on the processing

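Of 466 values of 29 gene results under 17 alternatives, 448 kept direction and call and 465 kept direction. The exception in direction was OPR3, 0.0453 with total count scaling (edgeR adjusted p = 0.430), which moves the median of all genes. With that scaling 4 wound output genes were called, 2 of them higher (LAPA2 and ARG2). The JAZ2 call also ended without the low-count filter (edgeR adjusted p = 0.0613). Between c2.11 and c2.5, 249 genes were called, 442 with DESeq2 and 626 with the compared genotypes alone. Leaving out 1 library gave 70 to 356, with 112, 87 and 123 without c2.11 replicate 1, 2 or 3, and 70, 92 and 80 without c2.5 replicate 1, 2 or 3. JRE2 and JRE4 were called between the lines under none of the alternatives run. Without the filter 4 members were called in both lines together, and 3 under the other alternatives. JRE4 ranged from -1.69 to -1.31 and JRE2 from -5.65 to -4.32. The GAME2 difference between the lines was called with DESeq2 (adjusted p = 0.0457), without the filter (0.0447), with the lines alone (0.0174) and without WT replicate 1 or 2 (0.0489 and 0.0355). With a replicate block 10888 genes were called in both lines together, against 11052 without it, and 217 between the lines. Libraries sharing a number deviated together with correlations of -0.27 to 0.23, over 0.1 in 4 of 9 pairs. Libraries of unlike number gave -0.26 to 0.35, over 0.1 in 5 of 18 pairs. With 3 libraries per genotype these values do not settle whether the numbers pair samples. Depth limits JRE1, JRE2, JRE3, JRE5, AOS1 and GAME2, which had under 50 counts in most libraries.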

Other observations

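The identifier of the edited gene is not settled by the tables used here. Solyc07g053570, 1 candidate for SlZFP2, was the only 1 of 30 list entries whose place went against the gene order in the reference table, where ZFP2 lies before OPR3. It had 34, 49 and 30 counts in c2.11, 31, 15 and 30 counts in c2.5, and 21, 13 and 11 counts in WT. Solyc07g006880, considered for SlZFP2 from general knowledge and after its values were seen, had 454, 459 and 487 CPM in c2.11, 450, 483 and 454 CPM in c2.5, and 82.2, 82.9 and 88.2 CPM in WT. It was 5.50-fold higher in the lines (log2 difference 2.46 ± 0.05, SE, edgeR adjusted p = 1.34e-11), and the lines and WT did not overlap. Counts per gene do not show the edits.

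After each genotype was centred on its own mean, the genes most like JRE4 over the 9 libraries were Solyc02g076850 and Solyc02g088690, with r of 0.995 and 0.994. Before centring their r with JRE4 was -0.607 and -0.548, so they did not share its difference between the lines and WT. Solyc02g076850 was scarce, at 0.272 to 1.28 CPM, and 1.78-fold higher in the lines. These are descriptions with no test.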
